A study of Mus musculus with 12 samples.

Results

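The response of wild-type (WT) pancreatic stellate cells (PSCs) to TGF-β1 was read from 6 of the 12 libraries of the study, 3 from WT PSCs given vehicle and 3 from WT PSCs given TGF-β1, lettered A to C in each group. Of the 420 genes listed, 221 had a normalised count of at least 10 in at least 3 of these 6 libraries and are described here, and the other 199 did not, 94 of them being at 0 in all 6. Of the 221 genes, 212 code for matrix or adhesion proteins or their modifiers, and 9 are other genes listed after the alphabetical run. The third-highest of the 6 values was 10.6 for Mmrn2, 10.8 for Col4a6 and 11.5 for Bcam, just inside the limit, and 9.61 for Clec3b, 9.46 for Serpinc1 and 8.87 for Adamts8, just outside it.

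The study asked how protein kinase N2 (PKN2) shapes PSCs, using an amplicon panel for mouse extracellular matrix (ECM) and cell adhesion genes. By the study's methods, the PSCs came by density centrifugation from 1 mouse pancreas of the genotype Rosa26CreERT2+/WT with PKN2 fl/fl alleles and were immortalised with SV40 large T, so that WT and PKN2 knockout (KO) cells share the floxed alleles, the Cre and the oncogene. PKN2 was deleted in the KO cells with 4-hydroxytamoxifen, and the sources used here do not say what WT PSCs received in its place. GEO's design text speaks of 3 lines of each genotype and the methods of dishes of cells, so the p-values measure the spread between these libraries, which may be technical. All cells had the strain label C57BL/6 and grew in medium with serum. The agents were 5 ng/ml TGF-β1 or its vehicle, an albumin and citrate solution, and RNA was taken after 72 h. Pkn2 is not on the panel, so the genotype could not be checked here.

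PSCs are the resident fibroblasts of the pancreas. When activated, they turn from cells that store vitamin A in lipid droplets into contractile myofibroblasts that lay down much of the scar tissue in pancreatitis and pancreatic cancer. TGF-β1 binds a pair of receptor kinases that phosphorylate SMAD2 and SMAD3, and these carry the signal to the nucleus with SMAD4. Collagens, fibronectin and CCN2 are among the best known products of its target genes.

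The 6 libraries held 1074095 to 1473153 counts on the panel, and the 10 most counted genes took 60.4% to 62.5% of them. A normalised count is a gene's count divided by 1 factor per library, which the authors set from reference genes. After this scaling the panel total was 1134795 ± 136201 (SD, n = 3) in vehicle and 1360866 ± 260632 after TGF-β1, and in both groups library A had the highest total and library B the lowest. Of the 9 genes listed after the alphabetical run, Map3k2 rose by 0.89 on the log2 scale and Thap3 fell by 0.58, while the other 7 were not called. The call of Map3k2 was lost with the total count (0.64, adjusted p = 0.057) and that of Thap3 without vehicle library B (-0.45, adjusted p = 0.058). Of 11 fibroblast and stellate cell markers, 9 were among the 221 genes, with summed normalised counts of 259454 to 428354 in vehicle and 309819 to 571621 after TGF-β1. The exceptions were Dcn and Lum, and Lum was under 10 in all 6 libraries. Dcn went from 26.0, 6.08 and 32.5 in vehicle to 1.18, 0.790 and 0.961 after TGF-β1. It was called lower in limma (log2 fold change -3.24, adjusted p = 0.00029). Lum had 2.36, 0 and 4.93 in vehicle and 0 in each library with TGF-β1. The 11 leukocyte markers summed to at most 23.6, with 9 of them, Itgam and Itgal included, at 0 throughout, and the 8 neural markers to at most 6.08. The 9 epithelial markers summed to 8.78 to 16.5 in vehicle and 27.7 to 31.9 after TGF-β1, with Cdh1 under 10 in every library and Lamb3 alone passing the limit. The 8 endothelial markers summed to 10.6 to 19.6 and 33.6 to 39.5, of which only Cd93 and Mmrn2 passed it, and Cdh5 was under 10 throughout. Fewer cells of a type and less RNA per cell cannot be told apart in such bulk libraries.

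TGF-β1 changed about as many of these genes down as up. With limma on log2(normalised count + 1), 113 of the 221 genes differed between TGF-β1 and vehicle at an adjusted p-value under 0.05, of which 55 rose and 58 fell. Over all 238 genes tested in the 12 libraries, 50.8% were called, 23.9% higher and 26.9% lower, so the 221 genes, which make up most of those tested, stood at this background. Of the called genes, 41 rose and 46 fell by at least 1 on the log2 scale, and 23 rose and 29 fell by at least 2. The 3 libraries with TGF-β1 lay wholly above those with vehicle for 59 genes and wholly below for 65, against 55.9% of all genes tested that lay apart either way. Among the 221 genes, 18 passed the limit through 1 group only, with no library at 10 in the other, and so had to differ. Genes that reached 10 in some libraries of the other group are outside this count. The 5 that passed through TGF-β1 were Adamtsl2, Cd93, Itga2, Lamb3 and Mmp9, and the 13 through vehicle were Adamts9, Amigo2, Bcam, Cdh18, Cdh26, Col4a6, Entpd1, Icam5, Itga11, Itgb2, Nid2, Pcdh9 and Tnxb. The direction of these genes was set by the limit, and their values are given as a description. Of the 189 genes with at least 10 in all 6 libraries, 48 rose, 44 fell and 97 were not called. Scaling to the total count in place of the authors' factors moved the median log2 fold change of all genes tested from 0.00 to -0.25, and the split over those genes from 57 higher and 64 lower to 54 higher and 95 lower. Of the 121 calls with the authors' factors, 116 were kept in the same direction with the total count, and all 121 with TMM.

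**Figure D1:**
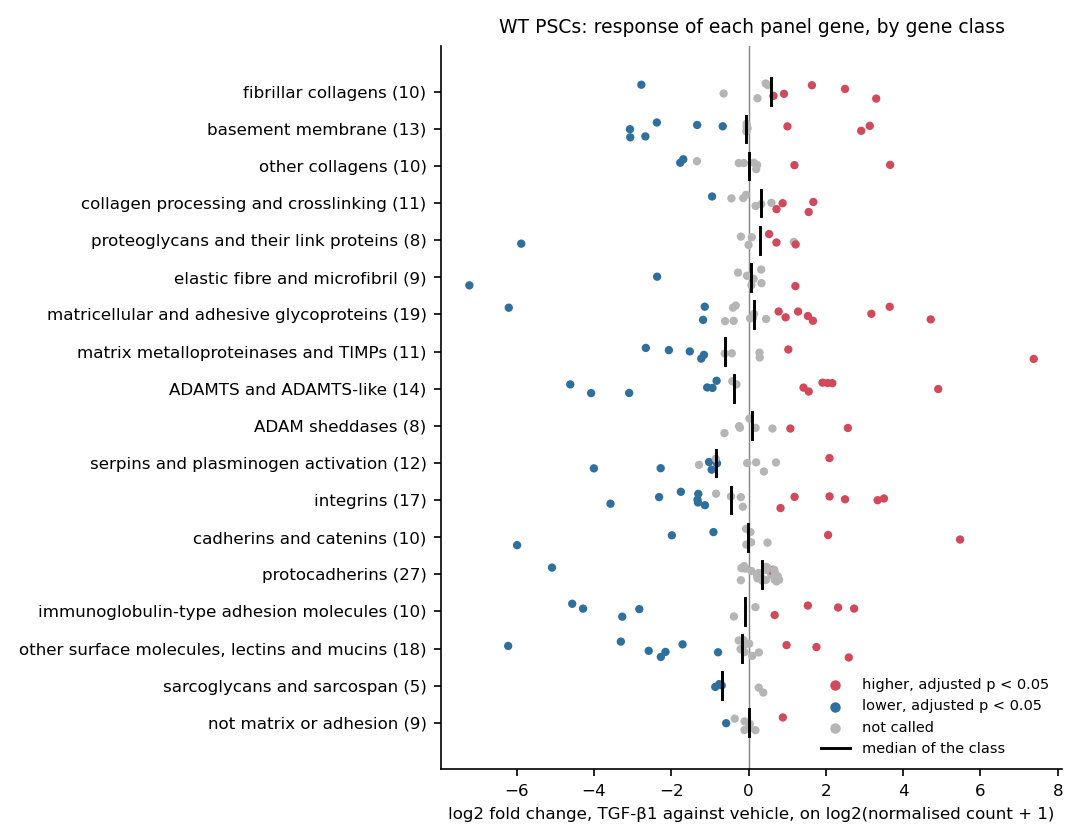
Log2 fold change with TGF-β1 against vehicle in WT PSCs (x axis, log2(normalised count + 1) scale) for the 221 genes, 1 point a gene, by gene class (number of genes in parentheses), in red where called higher, blue where called lower and grey where not called at an adjusted p-value of 0.05. Vertical bars mark class medians. Most classes hold genes on both sides of 0, and the point farthest to the right is Mmp9, whose place depends on the pseudocount.

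The largest rises included a matrix protease, 2 cell surface molecules and several matrix proteins, of which Mmp9 and Adamtsl2 had passed the limit through TGF-β1 only. Smoc2 reached 10 in vehicle library A only (10.6) and Col7a1 in vehicle library B only (11.5). Both thus also needed the libraries with TGF-β1 to pass. Mmp9, the gelatinase that cleaves type IV collagen and denatured collagen, had 0, 0 and 0.986 normalised counts in vehicle libraries A to C and 284, 149 and 214 after TGF-β1. That is 1 count in all in vehicle against 652, a ratio of 691 with an exact 95% interval of 124 to 27331 that covers counting error only. Cdh6, a type II cadherin, went from 21.2, 12.2 and 16.8 to 805, 679 and 832 (log2 fold change 5.47, standard error 0.28, adjusted p = 1.8e-09). Adamtsl2, a secreted protein that binds fibrillin microfibrils, stood at 2.36, 2.03 and 1.97 in vehicle, which is 2 or 3 counts a library, and at 97.9, 75.9 and 107 after TGF-β1. Smoc2, a calcium-binding matricellular protein of the SPARC family, went from 10.6, 4.05 and 3.94 to 196, 155 and 170.1 (log2 fold change 4.71). The naming rule admitted only genes whose groups did not overlap, and in these 4 genes the lowest library with TGF-β1 was far above the highest with vehicle. Tenascin-C (Tnc), a glycoprotein of provisional and tumour matrix, was already well counted in vehicle, at 1341, 944 and 1014, and reached 12394, 7281 and 10562 (log2 fold change 3.18, standard error 0.22, adjusted p = 2.9e-08). Its rise was carried by all 3 libraries with TGF-β1. The log2 fold change was 3.66 for Col7a1, 3.65 for Edil3, 3.50 for Itgb3, 3.30 for Col27a1 and 3.14 for Col18a1, which complete the 10 largest rises under the naming rule.

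Of the 10 largest falls, those of Tnxb, Cdh26, Pcdh9 and Itga11 were in genes that had passed the limit through vehicle only. Cd34 reached 10 after TGF-β1 in library A only (10.6), so it needed the vehicle libraries to pass. Efemp1, which codes for fibulin-3, a secreted glycoprotein of the elastic fibre family, went from 6322, 4155 and 5900.1 normalised counts in vehicle to 40.1, 24.5 and 43.2 after TGF-β1 (log2 fold change -7.22, standard error 0.23, adjusted p = 6.7e-12). Cd34, a sialomucin of progenitor cells, endothelium and resting fibroblasts, had nearly equal values of 595, 599 and 597 in vehicle and 10.6, 4.74 and 6.73 after TGF-β1 (log2 fold change -6.22, standard error 0.58, adjusted p = 3.8e-07). Tnxb, which codes for tenascin-X, the tenascin of loose connective tissue, went from 104, 128 and 114 to 0, 0 and 2.88, with 393 counts in vehicle against 3 after TGF-β1, 124-fold lower with an exact 95% interval of 42.0 to 602. Prelp, a small leucine-rich proteoglycan that anchors basement membranes, went from 1279, 591 and 970.2 to 21.2, 11.9 and 11.5 (log2 fold change -5.88, standard error 0.35, adjusted p = 6.8e-09). Adamts5, an aggrecanase that also cleaves versican, went from 2820.4, 2272 and 3041 to 118, 82.2 and 134 (log2 fold change -4.61, standard error 0.26, adjusted p = 6.6e-09). The naming rule excluded overlapping groups, and for both genes every library with TGF-β1 was far under the lowest with vehicle. Vcam1, the receptor by which leukocytes bind through VLA-4, went from 1106, 864 and 851 to 46.0, 37.9 and 59.6 (log2 fold change -4.28, standard error 0.26, adjusted p = 6.8e-09). Cdh26, Pcdh9, Serpinb1a and Itga11 complete the 10 largest falls, with log2 fold changes of -5.99, -5.09, -4.00 and -3.57. For Cdh26 and Pcdh9 the mean after TGF-β1 was 1.43 and 2.48 normalised counts, so that their size depends on the pseudocount.

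**Figure D2:**
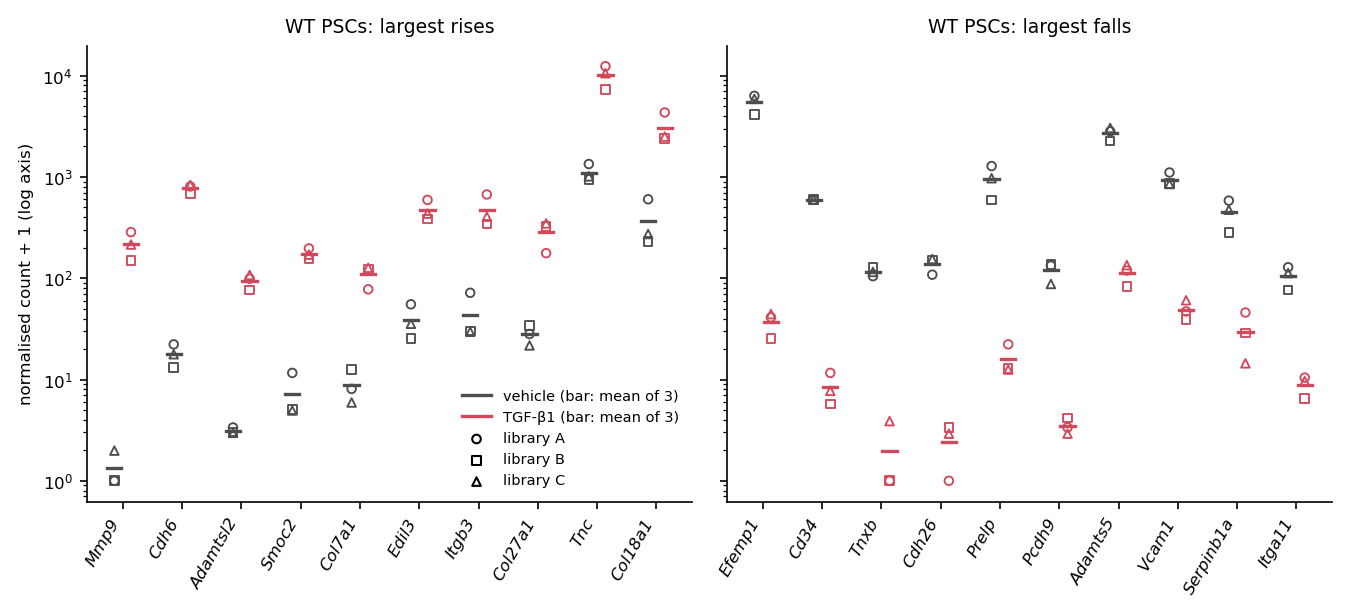
Normalised count + 1 (log axis) in each WT library for the 10 genes with the largest rise (left) and the 10 with the largest fall (right) under the naming rule, with vehicle in grey and TGF-β1 in red, a circle, square or triangle for libraries A, B and C and a bar at the mean of 3. In every gene shown the 2 groups lie apart, which the naming rule required.

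The promoters below are shown because they stand before genes at the 2 ends of the response: the 3 well known TGF-β1-inducible genes with the largest called rise, and the 3 genes with the deepest called fall, among those for which RefSeq's table (GRCm38.p6) lists a promoter. Each runs from 250 bases before to 50 bases after the annotated start. In the Tnxb window those last 50 bases begin with atg, a start codon, so the listed start may be that of translation. Whether transcription starts there was not tested. Capitals mark matches on either strand to CAGAC, a box bound by SMAD3 and SMAD4, to TGANTCA, or to GGAATG, bound by TEAD factors. TGANTCA, with N any base, takes in the AP-1 site TGAGTCA but is wider than it. The genes that rose are Tnc (chr4:64046966-64047265 on the minus strand, the first of 2 promoters listed), Itga5 (chr15:103366742-103367041 on the minus strand) and Itgb1 (chr8:128685404-128685703 on the plus strand), the latter coding for the integrin chains α5 and β1.
Tnc: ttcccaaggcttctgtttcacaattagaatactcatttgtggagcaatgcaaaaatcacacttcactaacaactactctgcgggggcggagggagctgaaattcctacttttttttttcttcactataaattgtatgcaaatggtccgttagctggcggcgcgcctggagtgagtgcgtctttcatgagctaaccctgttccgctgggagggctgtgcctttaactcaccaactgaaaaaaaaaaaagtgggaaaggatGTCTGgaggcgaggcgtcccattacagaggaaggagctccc
Itga5: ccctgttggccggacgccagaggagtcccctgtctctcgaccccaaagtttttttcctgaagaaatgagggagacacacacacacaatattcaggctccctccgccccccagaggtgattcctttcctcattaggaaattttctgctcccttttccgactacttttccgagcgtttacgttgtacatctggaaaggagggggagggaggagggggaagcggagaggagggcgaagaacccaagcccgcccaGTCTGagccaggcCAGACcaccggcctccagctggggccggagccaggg
Itgb1: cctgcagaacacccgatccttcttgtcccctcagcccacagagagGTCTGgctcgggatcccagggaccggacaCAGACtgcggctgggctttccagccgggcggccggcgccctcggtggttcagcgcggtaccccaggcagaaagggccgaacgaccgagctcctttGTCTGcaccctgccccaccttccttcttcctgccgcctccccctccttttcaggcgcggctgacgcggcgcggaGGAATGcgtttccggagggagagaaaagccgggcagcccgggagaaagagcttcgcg
The genes that fell are Efemp1 (chr11:28852955-28853254 on the plus strand), Cd34 (chr1:194938571-194938870 on the plus strand) and Tnxb (chr17:34670285-34670584 on the plus strand).
Efemp1: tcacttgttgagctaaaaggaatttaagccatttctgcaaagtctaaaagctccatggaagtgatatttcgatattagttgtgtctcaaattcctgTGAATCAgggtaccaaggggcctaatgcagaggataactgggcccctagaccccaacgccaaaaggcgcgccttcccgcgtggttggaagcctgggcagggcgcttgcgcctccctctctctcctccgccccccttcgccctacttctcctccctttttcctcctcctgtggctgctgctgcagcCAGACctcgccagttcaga
Cd34: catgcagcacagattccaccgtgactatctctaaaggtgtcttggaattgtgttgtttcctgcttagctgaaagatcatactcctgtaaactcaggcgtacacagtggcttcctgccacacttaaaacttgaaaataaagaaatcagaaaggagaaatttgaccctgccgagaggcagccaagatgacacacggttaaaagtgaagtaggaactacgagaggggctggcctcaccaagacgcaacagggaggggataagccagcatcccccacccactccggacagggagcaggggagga
Tnxb: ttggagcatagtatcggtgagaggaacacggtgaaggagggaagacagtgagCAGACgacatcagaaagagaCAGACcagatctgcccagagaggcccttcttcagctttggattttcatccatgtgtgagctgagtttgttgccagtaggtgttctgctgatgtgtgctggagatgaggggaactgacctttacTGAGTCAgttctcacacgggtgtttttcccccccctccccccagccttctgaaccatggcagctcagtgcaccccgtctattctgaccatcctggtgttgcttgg
These windows held 1 match to CAGAC for Tnc, 2 for Itga5, 3 for Itgb1, 1 for Efemp1, 0 for Cd34 and 2 for Tnxb, no 2 marked matches overlapping. TGANTCA matched once in Efemp1, as TGAATCA, and once in Tnxb, as TGAGTCA, and GGAATG once in Itgb1. Among the genes with a promoter listed, CAGAC was in 56.2% of the 32 that rose, 44.4% of the 45 that fell and 52.9% of the 68 not called, against 49.6% of all 32851 promoters of this length. TGANTCA was in 3.12%, 15.6% and 0%, against 7.81% of all promoters, and GGAATG in 15.6%, 11.1% and 11.8%, against 14.7%. These are descriptions of letters in a short window and carry no test.

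The genes that textbooks name as TGF-β-inducible did not all move together. Of 33 such matrix and adhesion genes on the panel, 32 were among the 221 (Comp was not), of which 15 rose, 1 fell and 16 were not called, with a median log2 fold change of 0.52 against 0.00 over all genes tested. Of all genes tested, 23.9% were called higher and 26.9% lower. Mmp9, which rose, and Itga11, which fell, are the 2 of the 32 that passed the limit through 1 group only and had to differ. With the total count, 15 rose and 7 fell. Ccn2, the matricellular growth factor once named CTGF, went from 16769, 25375 and 25292 to 56006, 47181 and 58592 (log2 fold change 1.28, standard error 0.22, adjusted p = 0.00018). The 2 groups lay well apart. Thrombospondin-1 (Thbs1), which can release TGF-β from its latent form, rose by 1.54 and periostin (Postn) by 0.96 on the log2 scale. Adam12, a sheddase of activated fibroblasts, rose by 2.57 (268, 295 and 250.4 in vehicle and 1922, 1423 and 1531 after TGF-β1). Other members of the list that are abundant in fibroblasts were not called with the authors' factors. Fibronectin (Fn1) had 38099, 15884 and 22429 normalised counts in vehicle and 44173, 23209.9 and 33906 after TGF-β1, with overlapping groups, a log2 difference of 0.45 and a 95% interval of -0.32 to 1.22. It passed the threshold in limma with the library letter as a term and no variance trend (adjusted p = 0.034). For Sparc the difference was 0.14 (-0.43 to 0.71) and for biglycan (Bgn) 0.00 (-0.55 to 0.56), the latter turning to -0.25 with the total count (adjusted p = 0.0094). Tgfbi, named for its induction by TGF-β, had 549, 268 and 448 in vehicle and 339.9, 202 and 270.0 after TGF-β1, a difference of -0.61 (-1.18 to -0.04) that missed the threshold at an adjusted p of 0.071 and passed it with the total count (0.0013). Apart from Itga11, whose fall the limit required, none of the list's genes was called lower with the authors' factors.

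Among the fibrillar collagens, which form the banded fibres of the stroma, chains of collagens V, XI and XXVII rose, while those of collagens I and III were not called. Of 10 genes, 5 rose, 1 fell and 4 were not called, with a median log2 fold change of 0.57. Over all genes tested, 23.9% were called higher and 26.9% lower. The 3 chains of collagen V, which sets fibre diameter from within the fibre, all rose, with log2 fold changes of 0.65 for Col5a1, 0.92 for Col5a2 and 2.50 for Col5a3. Col5a3 went from 289, 241 and 264 normalised counts to 1642, 1395 and 1460.5 (log2 fold change 2.50, standard error 0.18, adjusted p = 3.8e-08). Col11a1, whose chain has the same role in cartilage, went from 398, 326 and 359.9 to 1225, 964 and 1200.1 (log2 fold change 1.64, standard error 0.17, adjusted p = 1.2e-06). Every library with TGF-β1 was above every vehicle library for these 4 genes. Col27a1 went from 27.1, 33.1 and 20.7 to 176, 325 and 347, with library A the lowest after TGF-β1. Col2a1, the chain of cartilage fibres, moved the other way, from 1843, 1902 and 1602 to 307, 233 and 243 (log2 fold change -2.77, standard error 0.17, adjusted p = 6.8e-09). The chains of collagen I, the bulk of scar tissue, were spread widely between libraries of 1 group. Col1a1 had 199903, 105448 and 143313 in vehicle and 287598, 128611 and 204906 after TGF-β1, a difference of 0.44 with a 95% interval of -0.38 to 1.27, and Col1a2 one of 0.23 (-0.32 to 0.78). Col3a1 had 14220.1, 7783 and 11841 and 9926, 5012 and 6882, a difference of -0.65 (-1.38 to 0.08). It passed the threshold with TMM (-0.68, adjusted p = 0.046), with median-of-ratios scaling (-0.68, adjusted p = 0.047) and with the total count (-0.90, adjusted p = 3.5e-04). It also did in limma with the library letter as a term and no variance trend (adjusted p = 0.0063). In each group library B was the lowest and library A the highest for Col1a1 and Col3a1.

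Of the 11 genes that process, fold or crosslink collagen, 4 rose, 1 fell and 6 were not called, with a median of 0.33. Beside this stand 23.9% higher and 26.9% lower among all genes tested. Plod2, the lysyl hydroxylase of the collagen telopeptides, went from 2177, 1770.3 and 1583 normalised counts to 7423, 4799 and 5606 (log2 fold change 1.68, standard error 0.22, adjusted p = 1.1e-05). Pxdn, the peroxidase that crosslinks collagen IV, rose by 1.56 and P3h1, a prolyl 3-hydroxylase, by 0.72. Lysyl oxidase (Lox), which starts the covalent crosslinks of collagen and elastin, went from 14467, 9255 and 11539 to 28359.9, 16378 and 20818 (log2 fold change 0.88, standard error 0.27, adjusted p = 0.012). Its call was lost without vehicle library B (0.72, adjusted p = 0.056) and without TGF-β1 library A (0.68, adjusted p = 0.060). Pcolce, the enhancer of C-propeptide removal, went from 28859, 20154 and 25529 to 15310.5, 10063 and 13544 (log2 fold change -0.94, standard error 0.26, adjusted p = 0.0074). The collagen chaperone Serpinh1 and the prolyl hydroxylase subunit P4ha1 were not called, with differences of 0.18 (-0.26 to 0.63) and 0.33 (-0.19 to 0.84).

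**Figure D3:**
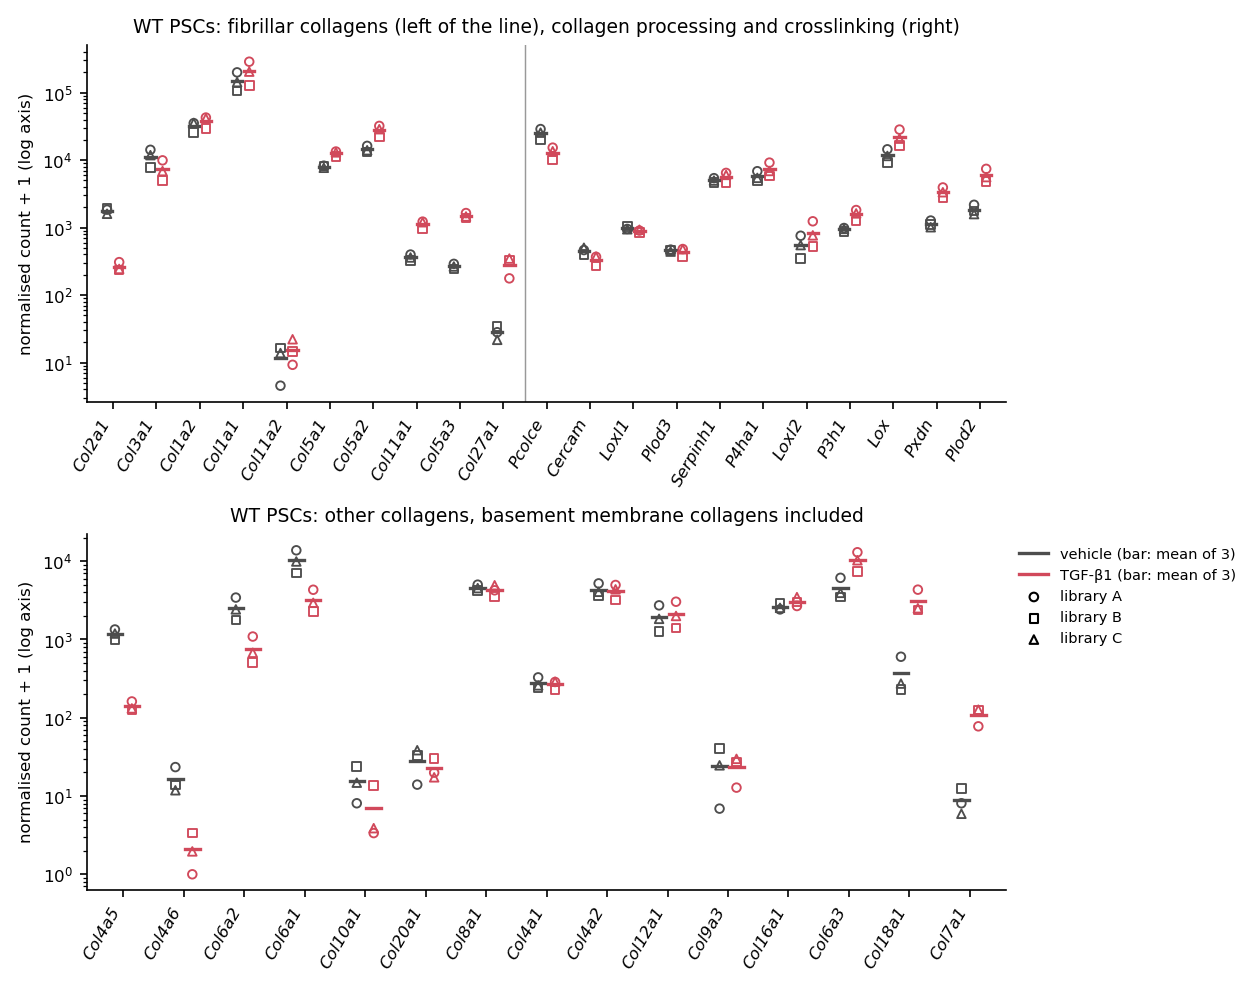
Normalised count + 1 (log axis) in each WT library for the fibrillar collagens and the collagen processing genes (top) and for the other collagens (bottom), in order of fold change within each set, with vehicle in grey, TGF-β1 in red, symbols for libraries A to C and bars at the mean of 3. Col5a3, Col11a1 and Col27a1 lie apart upward and Col2a1 downward, while Col1a1, Col1a2 and Col3a1 overlap.

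Basement membrane genes moved in both directions. Of 13 genes, 3 rose, 6 fell and 4 were not called, with a median of -0.06, and 3 of the 13 had passed the limit through 1 group only. All genes tested had 23.9% higher and 26.9% lower. Col18a1, the parent of endostatin, went from 601, 230.4 and 272 normalised counts to 4329.7, 2382 and 2505 (log2 fold change 3.14, standard error 0.41, adjusted p = 1.2e-05), library A being the highest in both groups. Lamb1, the laminin β1 chain, rose by 1.01. Nidogen-1 (Nid1), the link between laminin and collagen IV, fell from 13982, 8009 and 9537 to 5347, 3018 and 4170.1 (log2 fold change -1.33, standard error 0.29, adjusted p = 0.0012). The collagen IV chains parted. Col4a5 fell from 1341, 982 and 1189 to 160.5, 124 and 131 (log2 fold change -3.07, standard error 0.22, adjusted p = 3.8e-08), and Col4a6, its neighbour in head-to-head order on the X chromosome, which had passed the limit through vehicle only, had 22.4, 12.8 and 10.8 and 0, 2.37 and 0.961. Col4a1 and Col4a2, which form the main network, were not called, with differences of -0.05 (-0.45 to 0.35) and -0.05 (-0.66 to 0.56). Lama5 fell by 2.37, while perlecan (Hspg2) and Lamc1 were not called, at -0.03 (-0.67 to 0.62) and -0.06 (-0.80 to 0.69).

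Of the 10 other collagens, 2 rose, 2 fell and 6 were not called, with a median of 0.01. Across all genes tested, 23.9% were called higher and 26.9% lower. The chains of collagen VI, a beaded filament network around cells in which 1 of each chain is joined, split. Col6a1 went from 13783, 7096 and 9916 normalised counts to 4318, 2279 and 2939 (log2 fold change -1.69, standard error 0.36, adjusted p = 0.00098) and Col6a2 fell by 1.77, while Col6a3 went from 6132, 3476 and 3942 to 13013, 7423 and 10287 (log2 fold change 1.19, standard error 0.29, adjusted p = 0.0031). The groups did not overlap for any of the 3 chains. Col7a1, the anchoring fibril collagen of skin, went from 7.08, 11.5 and 4.93 to 76.7, 123 and 126 (log2 fold change 3.66, standard error 0.37, adjusted p = 8.2e-07). Col8a1, Col12a1 and Col16a1 were not called, with differences of -0.12, 0.14 and 0.22.

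Of the 8 proteoglycan genes, 3 rose, 1 fell and 4 were not called, with a median of 0.31. Calls over all genes tested were 23.9% higher and 26.9% lower. With the total count 3 rose and 3 fell. Gpc1, a heparan sulfate proteoglycan of the cell surface, went from 149.9, 139.9 and 135 normalised counts to 335, 356 and 304 (log2 fold change 1.22, standard error 0.19, adjusted p = 6.5e-05). Versican (Vcan), the large chondroitin sulfate proteoglycan of loose matrix, rose by 0.72 (adjusted p = 0.013), and this call was lost in 3 of the 6 fits without 1 WT library, without vehicle library B (0.64, adjusted p = 0.051), vehicle library C (0.64, 0.060) or TGF-β1 library C (0.66, 0.055). Aspn rose by 0.53 with overlapping groups (adjusted p = 0.037). This call was lost in 4 of the 6 fits without 1 WT library, without vehicle library A (0.47, adjusted p = 0.10), vehicle library B (0.43, 0.12), TGF-β1 library A (0.40, 0.14) or TGF-β1 library C (0.55, 0.072), and with the total count (0.28, adjusted p = 0.25). Fmod, with few counts, had a difference of 1.17 (adjusted p = 0.051) that passed the threshold with TMM (0.032) and with the total count (0.038). Prelp, described above, was the gene of this class that fell.

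Of the 9 elastic fibre genes, 1 rose, 2 fell and 6 were not called, with a median of 0.07, and with the total count 1 rose and 4 fell. With the authors' factors, 23.9% of all genes tested were called higher and 26.9% lower. Fibrillin-1 (Fbn1), the backbone of microfibrils and a store of latent TGF-β, went from 2412, 1316 and 1593 normalised counts to 5493, 2888 and 3968 (log2 fold change 1.21, standard error 0.28, adjusted p = 0.0021). Fibulin-5 (Fbln5), which guides elastin onto microfibrils, went from 2588, 1511 and 1798 to 522, 255 and 382 (log2 fold change -2.37, standard error 0.29, adjusted p = 8.3e-06), and with Efemp1 it was one of 2 fibulin family genes that fell. Fbln1, Fbln2 and Efemp2, the other members measured, were not called, with differences of -0.27 (-0.90 to 0.36), 0.33 (-0.42 to 1.07) and -0.04 (-0.44 to 0.36).

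The matricellular and adhesive glycoproteins, which tune how cells read the matrix, held more rises than falls. Of 19 genes, 8 rose, 3 fell and 8 were not called, with a median of 0.14, and with the total count 8 rose and 5 fell. The shares over all genes tested were 23.9% higher and 26.9% lower with the authors' factors. Tnxb, one of the 3, had passed the limit through vehicle only. Those that rose were Tnc, Smoc2, Edil3, Ccn2, Thbs1, Thbs2, Postn and Megf10. Edil3, an integrin αvβ3 ligand, went from 54.3, 24.3 and 34.5 normalised counts to 592, 383 and 433 (log2 fold change 3.65, standard error 0.30, adjusted p = 1.3e-07). Megf10, an engulfment receptor, rose by 1.67. Thbs2, the second thrombospondin, rose by 0.78 (adjusted p = 0.032), a call lost in 4 of the 6 fits without 1 WT library, in which the log2 fold change was between 0.59 and 0.99. Osteopontin (Spp1), a cytokine-like integrin ligand, went from 9255, 6472 and 7907 to 4182, 2830.2 and 3791 (log2 fold change -1.13, standard error 0.27, adjusted p = 0.0023). Ecm1, a secreted protein that restrains the activation of latent TGF-β in liver, went from 5241, 3706 and 4146 to 2103, 1631 and 2030.3 (log2 fold change -1.18, standard error 0.22, adjusted p = 0.0003). The groups lay apart for both Spp1 and Ecm1.

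Matrix metalloproteinases and their inhibitors held more falls than rises. Of 11 genes, 2 rose, 5 fell and 4 were not called, with a median of -0.62, and with the total count 2 rose and 7 fell. The shares over all genes tested were 23.9% higher and 26.9% lower with the authors' factors. Beside Mmp9, the gene that rose was Mmp14, the membrane-bound collagenase that activates proMMP2, from 7541, 4899 and 6357 normalised counts to 17621, 9064 and 12493 (log2 fold change 1.03, standard error 0.31, adjusted p = 0.011). That call was lost without vehicle library B (0.86, adjusted p = 0.051) and without TGF-β1 library A (0.79, adjusted p = 0.054). Its substrate's gene, Mmp2, was not called, with 6773, 3671 and 5262 in vehicle, 8512, 4468 and 6207 after TGF-β1 and a difference of 0.28 (-0.48 to 1.04). Timp2, an inhibitor that also takes part in that activation, went from 15122, 9871 and 12446 to 5453, 3485 and 4139 (log2 fold change -1.52, standard error 0.26, adjusted p = 0.00017). Timp1 was not called, at 0.29 (-0.12 to 0.70), and Timp3, at -0.43 (-0.90 to 0.03), missed the threshold although its groups did not overlap, and passed it with TMM (-0.47, adjusted p = 0.014) and with the total count (-0.68, adjusted p = 2.9e-05). Mmp28, which codes for epilysin, fell by 2.66, Mmp16, a second membrane-type protease, by 2.06, Mmp19 by 1.22 and Mmp11, or stromelysin-3, by 1.15.

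Of the 12 serpins and genes of plasminogen activation, 5 fell, with a median of -0.83 over the class, and 7 fell with the total count. Among all genes tested, 26.9% were called lower with the authors' factors. Urokinase (Plau), which turns plasminogen into plasmin, went from 827, 622 and 789 normalised counts to 467, 277 and 372 (log2 fold change -1.02, standard error 0.22, adjusted p = 0.0013). C1 inhibitor (Serping1) went from 224, 98.0 and 175 to 30.7, 32.4 and 31.7 (log2 fold change -2.27, standard error 0.31, adjusted p = 1.9e-05). Serpinb1a, which inhibits neutrophil proteases inside cells, fell from 583, 281 and 473 to 44.8, 27.7 and 13.5. Close copies of this gene exist, and how the panel's primers divide reads among them was not tested. Serpinb8 fell by 0.96. Serpinb9 fell by 0.82, a call lost in 4 of the 6 fits without 1 WT library, without vehicle library A (-0.59, adjusted p = 0.14), vehicle library C (-0.85, 0.061), TGF-β1 library B (-0.71, 0.11) or TGF-β1 library C (-0.67, 0.13). Serpinf1, which codes for PEDF, and Serpinb6a were among the most counted genes of the class and were not called, at 0.40 (-0.30 to 1.09) and -0.04 (-0.48 to 0.41).

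The ADAMTS family was mixed, with 6 of 14 genes that rose, 6 that fell and 2 not called, and a median of -0.37. For all genes tested the shares were 23.9% higher and 26.9% lower. Adamtsl2 and Adamts9 had passed the limit through 1 group only. Those that rose included Adamts4, an aggrecanase like Adamts5, from 201, 273 and 261 normalised counts to 1004, 781 and 984 (log2 fold change 1.91, standard error 0.17, adjusted p = 2.5e-07). These 2 aggrecanases thus moved in opposite directions. Adamts6, Adamts7 and Adamts12 rose by 2.17, 2.05 and 1.42. Adamts1, a versican-cleaving protease, fell by 0.93 and Adamts2, the procollagen N-proteinase, by 0.83. Adamts9 had 44.8, 45.9 and 55.2 in vehicle and 2.36, 1.58 and 1.92 after TGF-β1, which is 2 counts a library. Among the ADAMTS-like genes, which lack the protease domain, Adamtsl2 and Adamtsl3 rose and Adamtsl4, which binds fibrillin-1, fell from 382, 478 and 466 to 35.4, 58.5 and 63.4 (log2 fold change -3.09, standard error 0.24, adjusted p = 5.4e-08). Of the 8 ADAM sheddases, Adam12 and Adam19 rose and the other 6, Adam10 and Adam17 included, were not called, with a median of 0.10. This direction turned with the total count, by which 1 rose and 2 fell. Adam19 rose by 1.08 and was not called with the total count (0.83, adjusted p = 0.072). Adam9 had a difference of -0.62 (adjusted p = 0.07) and was called lower with TMM (-0.66, adjusted p = 0.012) and with the total count (-0.87, adjusted p = 2.2e-05), and Adam17, at -0.22, with the total count (-0.47, adjusted p = 0.016).

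The integrin chains changed in both directions. Of 17 genes, 6 rose, 7 fell and 4 were not called, with a median of -0.46, and with the total count 6 rose and 10 fell. With the authors' factors, all genes tested gave 23.9% higher and 26.9% lower. Itga2, Itga11 and Itgb2 had passed the limit through 1 group only, so that they had to differ. The fibronectin receptor gained both its chains. Itga5 went from 2713, 3152 and 3089 normalised counts to 13898, 10975 and 13524 (log2 fold change 2.10, standard error 0.20, adjusted p = 4.5e-07) and Itgb1, the partner of most α chains here, from 18026, 11123 and 13002 to 41531, 24747 and 30230.1 (log2 fold change 1.19, standard error 0.30, adjusted p = 0.004). Of the αv integrins, which can activate latent TGF-β, Itgb3 went from 70.8, 29.1 and 28.6 to 670.3, 341 and 405 (log2 fold change 3.50, standard error 0.37, adjusted p = 1.6e-06), with library A the highest in both groups. Itgb5 was not called, at -0.20 (-0.82 to 0.42). Itgav itself went from 17065, 9803 and 10914 to 28686, 15864 and 22427, with overlapping groups (log2 fold change 0.83, standard error 0.30, adjusted p = 0.03), and its call was lost in 4 of the 6 fits without 1 WT library, with adjusted p-values of 0.080 to 0.12. Of the collagen receptor chains, Itga2 had 1.18, 4.73 and 4.93 in vehicle and 53.1, 26.9 and 49.96 after TGF-β1, and Itga11 had 127, 75.7 and 111 and 9.44, 5.53 and 8.65. Itga1 missed the threshold at -0.84 (adjusted p = 0.051) and passed it with TMM (-0.87, adjusted p = 0.029) and with the total count (-1.08, adjusted p = 0.0086). The laminin-binding chains parted. Itga7, of muscle, rose from 64.9, 50.7 and 55.2 to 376, 298 and 305 (log2 fold change 2.50, standard error 0.25, adjusted p = 7.1e-07), while Itga3 fell by 1.75 and Itga6 by 1.13. Itgb7, a chain of leukocyte integrins, fell from 303, 198 and 214 to 48.4, 38.7 and 52.8, and Itgb2, another, had 16.5, 23.0 and 17.7 in vehicle and 9.44, 6.32 and 5.77 after TGF-β1. The leukocyte markers other than Itgb2 were each under 10 in all 6 libraries.

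**Figure D4:**
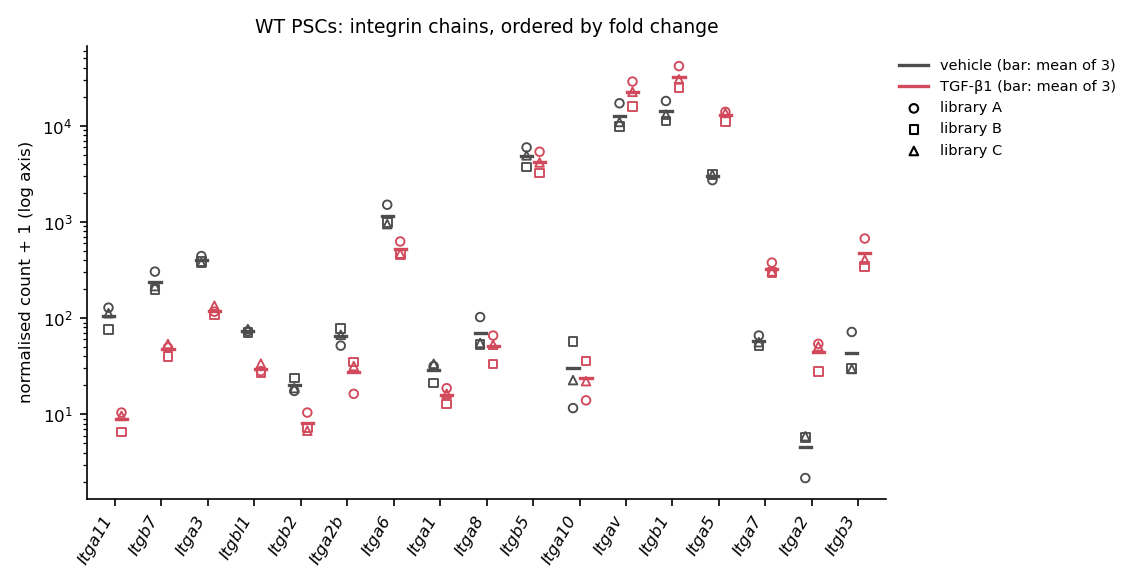
Normalised count + 1 (log axis) in each WT library for the 17 integrin genes, from the largest fall at the left to the largest rise at the right, with vehicle in grey, TGF-β1 in red, symbols for libraries A to C and bars at the mean of 3. Itga5, Itga7, Itga2, Itgb3 and Itgb1 lie apart upward, and the groups of Itgav overlap.

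Of 10 cadherin and catenin genes, 2 rose, 3 fell and 5 were not called, with a median of 0.00, and with the total count 3 rose and 5 fell. By the authors' factors, 23.9% of all genes tested were called higher and 26.9% lower. Cdh18 and Cdh26, which make up 2 of the 3 falls, had passed the limit through vehicle only and had to fall. The remaining fall, of Cdh23, was 0.91 on the log2 scale (limma adjusted p = 0.018). Its call was lost without vehicle library B (-0.76, adjusted p = 0.075), TGF-β1 library B (-0.86, 0.057) or TGF-β1 library C (-0.89, 0.05). Beside Cdh6, the gene that rose was Cdh11, the cadherin of activated fibroblasts, from 1584, 897 and 1147 normalised counts to 6706, 3745 and 4694 (log2 fold change 2.06, standard error 0.30, adjusted p = 3.7e-05). N-cadherin (Cdh2) was not called, with 2143, 1560.1 and 1870.4 and 2019, 1386 and 1959 and a difference of -0.06 (-0.52 to 0.40). Cdh18 had 18.9, 23.6 and 24.6 in vehicle and 4.72, 6.32 and 3.84 after TGF-β1, and Cdh26 had 107, 149 and 154 and 0, 2.37 and 1.92. The catenins tie cadherins to actin. Ctnna1 was not called, at -0.06 (-0.53 to 0.42). Ctnnb1 missed the threshold at 0.49 (0.05 to 0.93, adjusted p = 0.061) although its groups did not overlap, and passed it with TMM (0.46, adjusted p = 0.0068), with the total count (0.24, adjusted p = 0.034) and in DESeq2 with the authors' factors (adjusted p = 0.023).

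Protocadherins formed a large class of which few genes were called. Of 27 genes, 2 rose, 1 fell and 24 were not called, with a median of 0.36, where 50.8% of all genes tested were called. The 22 genes of the gamma cluster, which share constant exons so that reads may be split among them, held 1 rise, Pcdhga3, and had a median of 0.45. Pcdhga3 rose by 0.61 (adjusted p = 0.032), a call lost without vehicle library A (0.61, adjusted p = 0.056), vehicle library B (0.54, 0.091), TGF-β1 library B (0.62, 0.069) or TGF-β1 library C (0.51, 0.13). With the total count none of the 22 was called higher and 4 were called lower, so their direction depends on the scaling. Outside the cluster, Pcdh9 went from 132, 136 and 86.8 normalised counts to 2.36, 3.16 and 1.92, and Pcdh7 rose by 0.63 (adjusted p = 0.0034), a call that was lost with the total count (0.38, adjusted p = 0.29).

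Of the 10 immunoglobulin-type adhesion molecules, 4 rose, 4 fell and 2 were not called, with a median of -0.10. Shares of 23.9% higher and 26.9% lower held over all genes tested. Alcam, a homophilic adhesion molecule also called CD166, went from 594, 449 and 457 normalised counts to 3623, 2882 and 3428 (log2 fold change 2.73, standard error 0.18, adjusted p = 1.2e-08). Ncam1, the neural cell adhesion molecule, which stellate cells also express, went from 1390.1, 895 and 1196 to 6776, 4654 and 5846 (log2 fold change 2.32, standard error 0.23, adjusted p = 6.9e-07). Pvr and L1cam rose by 1.53 and 0.68, the latter not called without vehicle library B (0.58, adjusted p = 0.051). Beside Vcam1, the falls were in 3 genes with few counts that had passed the limit through vehicle only. Amigo2 had 139 counts in all in vehicle and 3 after TGF-β1, 43.7-fold lower (exact 95% interval 14.7 to 215), and Bcam, a laminin receptor, 54 and 3, 16.99-fold lower (5.51 to 84.9). Icam5 went from 14.2, 20.3 and 15.8 to 1.18, 0.790 and 2.88.

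The other surface molecules held 3 rises, 7 falls and 8 genes not called among 18, with a median of -0.17. In all genes tested, 23.9% were called higher and 26.9% lower. CD44, the hyaluronan receptor, went from 8356, 8513 and 7556 normalised counts to 17524, 13478 and 17596 (log2 fold change 0.98, standard error 0.20, adjusted p = 0.00067), and Flrt2 rose by 1.76. Cd93 had 1.18, 2.03 and 1.97 in vehicle and 17.7, 17.4 and 11.5 after TGF-β1. The galectins, lectins for β-galactosides, parted. Lgals3 went from 13234, 13401 and 13801 to 2712, 2742 and 2934 (log2 fold change -2.27, standard error 0.20, adjusted p = 2.5e-07), with little spread in either group, and Lgals9 fell by 2.58. Lgals1, the most counted galectin, was not called, with 168406, 224727 and 217633 in vehicle, 188431, 194699 and 232476 after TGF-β1 and a difference of 0.02 (-0.44 to 0.47). Entpd1, the ectonucleotidase CD39, went from 51.9, 52.7 and 67.0 to 3.54, 3.16 and 9.61, the tetraspanin Cd9 fell by 0.79 and Adgre5, or CD97, by 1.71. Of the 5 genes of the sarcoglycan complex, which links muscle and fibroblast membranes to the matrix, Sgce, Sgcd and Sspn fell by 0.86, 0.69 and 0.76 and none rose. That of Sspn was lost in 4 of the 6 fits without 1 WT library, with adjusted p-values of 0.078 to 0.19, and with limma on the 6 WT libraries alone (0.061).

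With the total count, 8 genes given here as not called were called lower, namely Bgn, Cdh2, Col4a2, Col8a1, Ctnna1, Efemp2, Fbln1 and Itgb5, with log2 fold changes of -0.52 to -0.25. Leaving out each WT library in turn kept 99 of the 113 calls in all 6 fits, and between 112 and 119 of all genes tested were called, against 121 with all libraries. The 14 genes that lost their call in at least 1 fit had log2 fold changes between -1.30 and 1.03.

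The response of PKN2 KO PSCs was measured in the other 6 libraries with the same agent, dose and time. A difference from the WT response was called for few genes. How large a difference this comparison could find was not simulated, so genes not called may differ too. Of the 113 genes called in WT PSCs, 111 had a log2 fold change toward the same side in PKN2 KO PSCs. The 113 include the 18 genes whose WT direction was set by the limit. A difference between the 2 responses, tested as an interaction in limma, was called for 8 of the 221 genes, against 3.36% of all genes tested. This count fell to 0 without KO vehicle library B or without WT TGF-β1 library C, with 21 and 16 genes at an unadjusted p-value under 0.05 in limma, where all 12 libraries gave 23, and edgeR called 6 with all 12. Without WT vehicle library B or C, KO vehicle library A or C, WT TGF-β1 library A, or KO TGF-β1 library B or C it was 1 to 3. The count rose to 13 over all genes tested with DESeq2 and its own factors, and to 22 in limma with the library letter as a term and no variance trend. The difference is given as the WT response minus the KO response on the log2 scale. Ccn2 rose by 1.28 in WT PSCs, while in PKN2 KO PSCs it had 25506, 24112 and 21302 normalised counts in vehicle and 27421, 19487 and 25482 after TGF-β1, a change of 0.02 with overlapping groups (difference 1.26, standard error 0.31, adjusted p = 0.039). The difference was 1.16 for Adamtsl3 and 3.41 for Mmp9, which reached 21.9, 28.4 and 45.2 in PKN2 KO PSCs with TGF-β1. Among the genes that fell in WT PSCs, Prelp stood at 3204, 2325 and 3379 in PKN2 KO PSCs with vehicle and 654, 256 and 323 with TGF-β1, a shallower fall from a higher level (difference -2.93, standard error 0.50, adjusted p = 0.011). Serpinb8 had a difference of -1.01, and Itga11, with 0, 2.58 and 1.22 in PKN2 KO PSCs with TGF-β1, one of 2.69 that depends on the pseudocount. Adamts14 was not called in WT PSCs, with 186, 218 and 159 in vehicle and 149, 133 and 170.1 after TGF-β1, and went from 155, 144 and 150.5 to 49.2, 43.0 and 50.04 in PKN2 KO PSCs (difference 1.33, adjusted p = 0.026). In the 12 fits without 1 library each, the difference was still called for Prelp in 10 fits, Mmp9 in 6, Serpinb8 in 5, Itga11 in 4, Adamts14 and Adamtsl3 in 3 and Ccn2 in 2.

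**Figure D5:**
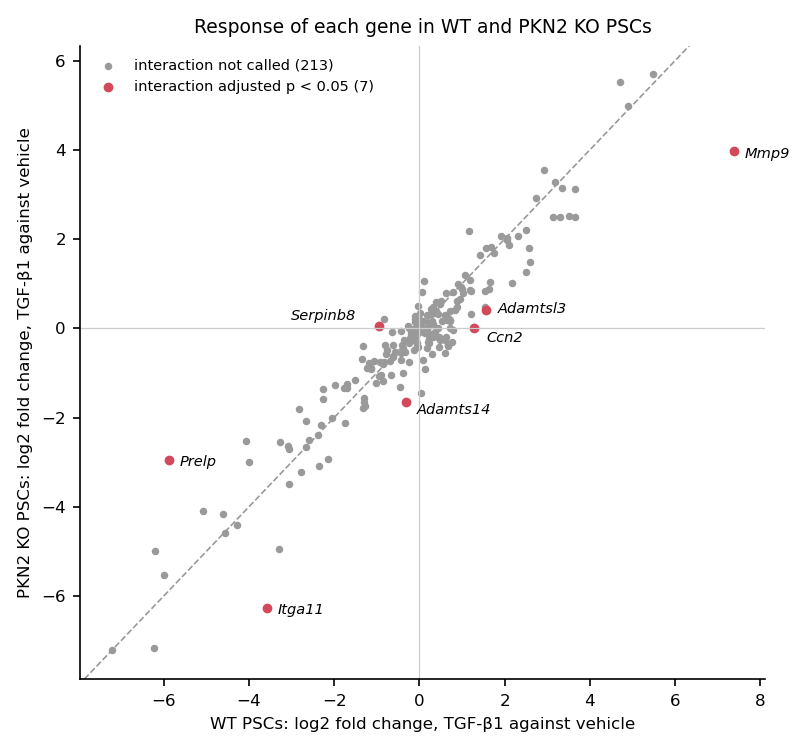
Log2 fold change with TGF-β1 against vehicle for 220 of the 221 genes in WT PSCs (x axis) and in PKN2 KO PSCs (y axis), on the log2(normalised count + 1) scale, with the dashed line at equal change and 7 genes with a called interaction in red. Most genes lie near the line, with Mmp9, Ccn2 and Adamtsl3 below it on the right and Prelp above it on the left.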

How the data were processed

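The authors amplified total RNA of each sample by targeted amplification of matrix and adhesion genes and sequenced 12 samples in 1 pool. The submitters' processing notes name STAR, mm10 and DESeq2 1.32. The deposited files hold raw counts per gene and 2 tables of normalised counts, a signal that the authors made by dividing the counts of a library by a factor from reference genes. Among the raw counts, 6 columns repeat the names of the PKN2 KO vehicle libraries, so these were not used, and all 12 libraries were taken from the normalised tables. All their values were whole multiples of 1 step per library (tolerance 0.001), which gave back the deposited counts of the 6 uniquely named columns for all 420 genes. These recovered counts served for totals and for other scalings and count tests.

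Genes with at least 10 in at least 3 of the 12 libraries, 238 genes, were tested with limma 3.58.1 in R 4.3.3 on log2(normalised count + 1), with 1 mean for each of the 4 groups, a variance trend, robust estimation and Benjamini-Hochberg adjustment at 0.05, and intervals are 95%. For genes with few counts this scale makes fold changes too small. On simulated counts for these 238 genes the WT comparison recovered 92.1% of changes of 1 and 100% of changes of 2 on the log2 scale. The simulation gave all genes a common dispersion and no effect of the library letter. These rates therefore do not hold for genes that spread more between libraries. The genes described, their classes and the gene lists were chosen with earlier results of these data known. Named genes were the 10 called genes with the largest change in each direction whose groups did not overlap and whose mean was at least 50 in 1 group, the 3 most counted genes of each class and its called gene with the largest change in each direction, and the list of well known TGF-β-inducible genes. Genes named beyond these, such as Lgals9, Ecm1 and Adamts6, were chosen after their values were seen. Values of 1 gene are not reported here, though it enters the counts over genes. Alternatives were TMM, median-of-ratios and total count scaling, other pseudocounts and filters, the edgeR 4.0.16 quasi-likelihood test, the DESeq2 1.42.0 Wald test, a replicate block and each library left out. Ensembl identifiers were paired with symbols for all 420 genes. Counting intervals and ratios cover counting error only, and whether the deposited counts were collapsed by molecular identifiers is not given in the sources used here.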

Additional observations from a re-analysis of the deposited data

Results flagged for a closer look

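Of the 8 genes whose response to TGF-β1 differed between WT and PKN2 KO PSCs by limma's interaction of genotype and TGF-β1 over 238 genes, 7 are described. The difference is the WT response minus the KO response on the log2 scale. It was positive for Mmp9 (3.41, adjusted p = 0.026), Itga11 (2.69, 0.026), Adamts14 (1.33, 0.026), Ccn2 (1.26, 0.039) and Adamtsl3 (1.16, 0.026). It was negative for Prelp (-2.93, 0.011) and Serpinb8 (-1.01, 0.026). Without the variance trend the adjusted p was 0.025 for Adamts14, Mmp9 and Prelp, 0.037 for Itga11, 0.053 for Ccn2 and Serpinb8 and 0.061 for Adamtsl3. With edgeR on the recovered counts it was 0.010 for Prelp, 0.036 to 0.042 for Adamts14, Adamtsl3, Itga11 and Serpinb8, 0.051 for Ccn2 and 0.15 for Mmp9. With total count scaling it was 0.055 to 0.084 for Itga11, Ccn2, Adamts14 and Serpinb8 and under the threshold for the other 3. Mmp9 had few or no counts in vehicle in both genotypes, and Itga11 few in PKN2 KO PSCs with TGF-β1.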

How the results depend on the processing

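The WT response gave 93 to 160 calls against 121 under every alternative run, and none of the 121 called genes was called in the opposite direction under any of them. The lowest count came with at least 10 required in every library (188 genes tested, 91 of 92 calls kept) and the highest with the replicate block. TMM or median-of-ratios scaling gave 59 higher and 74 lower, the total count 54 and 95, the total without the 10 most counted genes 54 and 96, edgeR 57 and 64, and DESeq2 60 and 67 with the authors' factors or 59 and 76 with its own. The median log2 fold change was -0.25 with the total count and -0.03 with TMM. For 91 named genes under these alternatives, 2045 of 2173 values kept their direction and side of the threshold, 21 fell short of it, 105 newly passed it and 2 reversed. The reversed values were those of Bgn, -0.25 with the total count and -0.26 once the 10 most counted genes were left out of it.

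The replicate block, with the letter as a term, gave 160 calls (79 higher, 81 lower), and 146 without the variance trend (71 and 75), 153 on the 6 WT libraries without it and 143 with TMM and without it. With block and trend the prior degrees of freedom were infinite for 221 of 238 genes, so those p-values are too small. Same-lettered vehicle and TGF-β1 libraries deviated together for A (r = 0.70 across genes) and B (0.65), while A and B deviated oppositely (-0.71 and -0.65). For C, r was -0.02. Deviations from a group mean cancel out over its libraries in each gene, so the value for C cannot settle whether letters mark pairs. Which libraries were grown together is not stated, and the main fit left the letter out. In the WT responses, not every library correlated best with its own letter.

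The interaction count of 8 genes was less stable. It was 4 without the trend, 13 with DESeq2 and its own factors, 41 with the replicate block, 22 with the replicate block and no trend, 17 with the replicate block, TMM and no trend, and 0 to 11 with 1 library left out. The block without the trend over all libraries, the block with TMM and all alternatives for the interaction were chosen after seeing the data. Depth limits genes with under 10 counts, whose fold change depends on the pseudocount.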
